A study of Mus musculus with 12 samples.

Results

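FRA-1 binding was described around 32 mouse genes of glucose uptake, glycolysis and the hypoxia inducible factor (HIF) pathway, out of 21887 protein-coding genes in RefSeq. The genes were listed by function, and no peak value is part of the rule. Chromatin immunoprecipitation followed by sequencing (ChIP-seq) with an antibody to FRA-1 had been done in mouse peritoneal macrophages. By the sample records these were adherent, thioglycollate-elicited cells of male or female mice on a 129/C57Bl6 background at 8 weeks, whereas the design text describes C57Bl/6 mice and peritoneal lavage and names no elicitation. One group was unstimulated, one was stimulated with LPS for 1 h and one received apoptotic cells at a ratio of 1:5 for 1 h, with 3 replicates each. The LPS dose is 10 µg/mL in the design text and 1 µg/mL in the records. The records name 3 mice, each in all conditions, and the design text 9 mice, so that replicates may share animals across conditions. No genotype other than the background is given for these animals. The cell type label could not be checked, because the tables hold peaks and no expression values. Replicates are numbered by their column order in the deposited tables.

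Glycolysis turns glucose into pyruvate and, through lactate dehydrogenase, into lactate. The HIF proteins are pairs of an oxygen-labile alpha subunit and the stable partner ARNT. When oxygen is present, prolyl hydroxylases mark the alpha subunit and the VHL protein has it degraded. When oxygen is short, HIF binds hypoxia response elements, whose core reads ACGTG or GCGTG, and many glycolytic genes are among its targets. Macrophages exposed to LPS, a component of the outer membrane of Gram-negative bacteria, shift to glycolysis, and HIF1A takes part in that shift. FRA-1, encoded by Fosl1, is a subunit of the AP-1 transcription factor, which binds DNA as a dimer with a JUN protein.

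A peak is a stretch of the genome that the authors called as enriched in 1 replicate. Its score has no unit and the labels do not say what it measures, and a higher score is taken here as a stronger call. The lowest listed score was 50.01, many peaks share exactly the same score, and the scores were not normalised between replicates, whose median score ran from 106 in apoptotic cells 3 to 181 in LPS 3. Scores are therefore also ranked within a replicate, as a percentile of all its peaks. The sequencing depth is unknown, and a gene without a listed peak had no binding detectable at the authors' threshold. A gene was counted as having a peak where a peak overlapped its body, extended by 20 kb on either side, by at least 1 bp. Peaks that met or overlapped in any of the 9 replicates were taken as one region, which gave 300608 regions in all and 280 near the 32 genes. A gene within 20 kb of a peak is a neighbour, and other genes can lie closer.

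The replicates were uneven. Unstimulated replicates had 20981 to 28314 peaks, LPS replicates 39728 to 63010 and apoptotic cell replicates 31501 to 79474. The smallest peak width was 104 to 116 bp in 4 replicates (unstimulated 3, LPS 1, LPS 3 and apoptotic cells 3) and 158 to 172 bp in the other 5. LPS 1 and LPS 3 had 24.2% of the regions of either in common, and unstimulated 3 had 13.2% and 11.9% in common with them. By contrast, the pairs of unstimulated replicates had 4.23 to 6.33% in common. The part of the peak width in the results below was not tested beyond the values given within each class.

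The promoters of Pgam1, Egln1 and Pdk1 are printed because they are those of the 32 genes that a peak reached. RefSeq promoters of GRCm38.p6 run from 250 bases before to 50 bases after a transcription start and were at hand for 30 of the genes. Capitals mark the hypoxia response element core, searched as ACGTG and GCGTG on both strands (CACGT and CACGC on the strand shown).
Pgam1, chr19:41911621-41911920, plus strand: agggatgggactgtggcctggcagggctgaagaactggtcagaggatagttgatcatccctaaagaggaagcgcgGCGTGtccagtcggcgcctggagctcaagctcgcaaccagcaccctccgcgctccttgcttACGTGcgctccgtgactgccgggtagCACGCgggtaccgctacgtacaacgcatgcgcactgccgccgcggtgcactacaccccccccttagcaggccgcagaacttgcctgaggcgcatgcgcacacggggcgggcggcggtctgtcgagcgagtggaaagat
Egln1, chr8:124949205-124949504, minus strand: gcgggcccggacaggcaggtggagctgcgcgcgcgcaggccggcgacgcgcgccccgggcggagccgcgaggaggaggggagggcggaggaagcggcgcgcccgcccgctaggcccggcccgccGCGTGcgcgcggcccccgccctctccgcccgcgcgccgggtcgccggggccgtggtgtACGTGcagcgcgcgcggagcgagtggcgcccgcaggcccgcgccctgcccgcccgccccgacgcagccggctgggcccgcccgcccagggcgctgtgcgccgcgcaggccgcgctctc
Pdk1, chr2:71874654-71874953, plus strand: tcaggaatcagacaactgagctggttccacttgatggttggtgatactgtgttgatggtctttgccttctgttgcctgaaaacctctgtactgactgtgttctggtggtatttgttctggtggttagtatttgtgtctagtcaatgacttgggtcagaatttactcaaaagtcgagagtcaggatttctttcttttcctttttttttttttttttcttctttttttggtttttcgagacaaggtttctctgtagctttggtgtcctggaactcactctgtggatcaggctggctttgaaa
Pgam1 encodes phosphoglycerate mutase, Egln1 the main HIF prolyl hydroxylase, and Pdk1 a kinase that keeps pyruvate out of the mitochondrial cycle. The Pgam1 promoter held 3 cores, starting at bases 76, 137 and 163 of the window. A peak of LPS replicate 3, with a score of 240.0, covered its first 80 bases and 1 of these cores. The Egln1 promoter held 2 cores, at bases 125 and 183, and a peak of apoptotic cell replicate 1 with a score of 73.1 reached only its first 14 bases. The Pdk1 promoter shown belongs to a start inside the gene body. It held 0 cores, and a peak of LPS replicate 3 with a score of 102.8 covered bases 181 to 300. Each of these promoters was thus reached by a peak in 1 of 9 replicates.

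A peak in the promoter was rare in these genes as in others. It was listed for 3 of 30 genes (10.0%), against 886 of 17492 protein-coding genes with a promoter entry (5.07%). In at least 2 replicates it was listed for 0 of the 30 genes and for 91 of the 17492 (0.52%). The hypoxia response element core stood in a promoter of 27 of the 30 genes (90.0%) and of 52.3% of the 17492. The AP-1 motif TGANTCA, in which N is any base, stood in that of Aldoa alone (3.33%, against 8.12%). The CRE motif TGACGTCA, bound by CREB and ATF proteins, stood in those of Arnt and Ldha (6.67%, against 2.54%). TGACGTCA contains neither TGANTCA nor a core of the hypoxia response element, and both motifs were searched on both strands. These are matches of letters and not measured sites.

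With peaks counted within 20 kb, unstimulated macrophages had a FRA-1 peak near more of the 32 genes than near other genes of their length. With the genes assigned in the deposited tables alone this did not hold, as the difference was then -5.5, -1.3 and 6.5 percentage points in the 3 unstimulated replicates. The number of genes with a peak was 22, 17 and 22 in the 3 unstimulated replicates, that is 68.8, 53.1 and 68.8%. Protein-coding genes whose length was within 50% of that of each listed gene had a peak in 45.7, 38.9 and 50.8% of cases, averaged over the listed genes. The difference was 23.0, 14.2 and 18 percentage points, or 18.4 ± 4.42 (SD, n = 3), and all 3 replicates lay on the same side. After LPS, 22, 20 and 27 of the genes had a peak (68.8, 62.5 and 84.4%), against 67.7, 59.4 and 80.3% of the genes of similar length. The difference was 2.74 ± 1.54 percentage points (SD, n = 3). With apoptotic cells, 20, 17 and 27 genes had a peak (62.5, 53.1 and 84.4%), against 61.1, 53.2 and 83.5%, a difference of 0.711 ± 0.765 points (SD, n = 3). The mean number of genes with a peak was 20.3 ± 2.89, 23.0 ± 3.61 and 21.3 ± 5.13 (SD, n = 3) in the order of conditions given. The 3 groups of replicates overlapped, so that the number of these genes with a peak did not differ beyond the spread, while the genes of similar length went from a mean of 45.2% unstimulated to 69.1% and 66.0%.

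**Figure D1:**
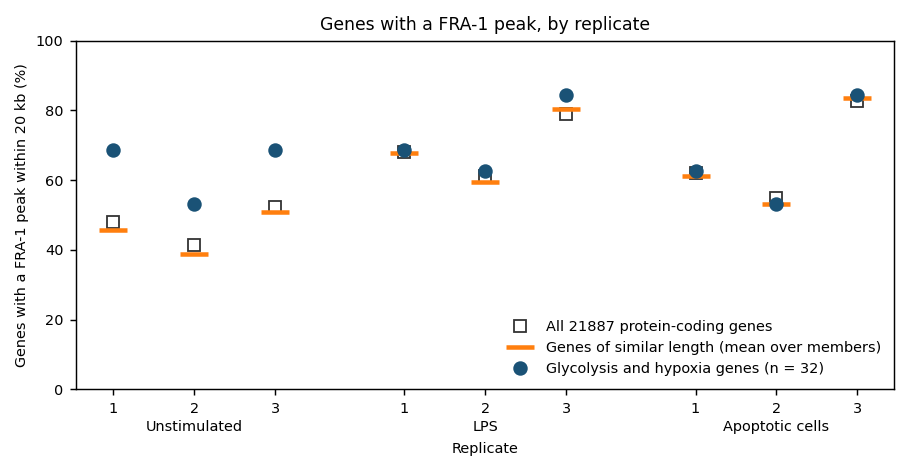
Share of genes with a FRA-1 peak within 20 kb (vertical axis, %) in each of the 9 replicates (horizontal axis); filled circles are the 32 glycolysis and hypoxia genes, orange bars genes of similar length averaged over the 32, open squares all 21887 protein-coding genes. The circles lie 14.2 to 23.0 percentage points above the bars in unstimulated macrophages and from 0.1 points below to 4.1 points above them in the other replicates.

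With 20 kb and all peaks, the surplus in unstimulated macrophages was 18 points in the narrow replicate. In the wide ones it was 23.0 and 14.2 points, a mean of 18.6. With the gene body alone it was 4.4 points in the narrow replicate, against 9.7 and 13.5. With the deposited gene column alone the narrow replicate was the higher, at 6.5 points against -5.5 and -1.3. The narrow class held 1 unstimulated replicate, so that the classes could not be compared. The surplus after LPS, and with it the contrast between conditions, moved with the number of peaks compared. When each replicate was cut to its 20981 highest-scoring peaks, the surplus was 16.3 ± 10.6 points unstimulated, 9.3 ± 3.39 after LPS and -0.573 ± 6.59 with apoptotic cells (SD, n = 3). The narrow unstimulated replicate then had 7.0 points, and the wide ones 27.9 and 14.2. At equal numbers of peaks the unstimulated replicates, at 7.0 to 27.9 points, overlapped the LPS replicates, at 6.6 to 13.1 points. A difference between unstimulated macrophages and LPS was therefore not shown once the number of peaks was made equal. The apoptotic cell replicates, at -8.0, 4.6 and 1.7 points, then lay below every unstimulated one. With an extension of 5 kb the surplus was 11.2 ± 4.62 points unstimulated, -1.23 ± 5.5 after LPS and 7.28 ± 5.71 with apoptotic cells (SD, n = 3). There the apoptotic cell replicates, at 1.8 to 13.2 points, overlapped the unstimulated ones, at 8.5 to 16.5 points.

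Listed genes with a peak also recurred between unstimulated replicates, though not always with a peak at the same place. Hk2 and Pkm, for instance, had a peak in each unstimulated replicate but no region with a peak in more than 1 replicate. In unstimulated macrophages 13 genes had a peak in all 3 replicates, which is 40.6%, against 18.9% of all protein-coding genes. After LPS the number was 15 (46.9%, against 42.5%) and with apoptotic cells 12 (37.5%, against 37.0%). These comparisons are with all protein-coding genes and are not matched for gene length. None of the 32 genes was without a peak in all replicates, where 1.19% of protein-coding genes were. A peak in every one of the 9 replicates, not always at the same place, was listed near 7 genes (21.9%), against 13.2% of protein-coding genes. These were Egln3, Slc2a3, Pfkl, Eno1, Slc16a1, Vegfa and Bnip3, a prolyl hydroxylase, a glucose transporter, enzymes of the upper and lower part of glycolysis, a lactate transporter, a growth factor of blood vessels and a protein of mitochondrial turnover.

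LPS was set against unstimulated macrophages to ask where FRA-1 was found after stimulation. Gpi1, which encodes the glucose phosphate isomerase, had 3, 2 and 6 peaks in the LPS replicates and 0 in each unstimulated one. Adm, which encodes the vasoactive peptide adrenomedullin, had 2, 1 and 2 peaks after LPS and 0 in each unstimulated replicate. They were the only 2 of the 32 genes (6.25%) that combined a peak in each LPS replicate with none in any unstimulated one, a pattern that 3.88% of all protein-coding genes showed. The reverse was seen at 0 of the 32 genes and at 0.151% of all. The mean number of peaks was 3.67 higher at Gpi1 and 1.67 higher at Adm after LPS (exact permutation test, two-sided, p = 0.1 for both, the smallest that 3 replicates against 3 allow). Both genes were picked because their replicate groups do not overlap, so that this p was fixed by the choice and adds no support. Gpi1 kept this pattern, and Adm did not, with scores of at least 100, with an extension of 5 kb and with equal numbers of peaks. With the gene body alone or the deposited gene column alone it was seen at 0 of the 32 genes.

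The LPS peaks of these genes mostly lay at different places. Of the 11 regions near Gpi1, 1 was shared between replicates, at chr7:34198828-34198942, 2385 bp beyond the 3′ end, where LPS 1 scored 96.4 and LPS 3 scored 264.8. The start of Pdcd2l was nearer to this region, at 2215 bp, than that of Gpi1, at 31451 bp. The highest-scoring peak of LPS 1 lay 430 bp upstream of Gpi1 with a score of 200.5. LPS 2 had its peaks at 2 other places beyond the 3′ end, with scores of 166.6 and 68.8. Both were also nearer to the start of Pdcd2l, at 7639 and 1246 bp, than to that of Gpi1. At Adm, LPS 1, LPS 3 and apoptotic cells 2 shared a region 5730 bp beyond the 3′ end, at chr7:110635550-110635722, with scores of 136.6, 136.4 and 133.8. LPS 2 had its peak 1510 bp upstream of Adm instead, with a score of 89.3. The Adm gene body itself held 0 peaks more after LPS than without (exact permutation test, two-sided, p = 1.0).

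With apoptotic cells no gene of the list went from no peak in every unstimulated replicate to a peak in every stimulated one (0 of 32, against 3.01% of all genes). The reverse was found at 0 of 32, against 0.151%. A peak in every LPS and no apoptotic cell replicate was seen at 0 of 32 genes, against 0.868%, and the reverse at 0 of 32, against 0.745%. By number of peaks, Slc2a3, Pgam1 and Bnip3 had more in every apoptotic cell replicate than in any unstimulated one. These are 9.38% of the list, against 6.57% of all genes. Slc2a3 had 1, 1 and 2 peaks unstimulated and 3, 3 and 3 with apoptotic cells, and Bnip3 had 2, 2 and 2 against 4, 3 and 4. Pgam1 had 0, 1 and 1 peaks unstimulated and 5, 2 and 5 with apoptotic cells, but 2, 0 and 1 after LPS. The differences in mean number were 1.67, 3.33 and 1.67 for Slc2a3, Pgam1 and Bnip3 (exact permutation test, two-sided, p = 0.1 each, the smallest possible). Here too the p was fixed by picking genes whose groups do not overlap. Slc2a3 and Bnip3 also had a peak in each unstimulated replicate.

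By the same measure Gpi1 and Adm had more peaks in every LPS than in any unstimulated replicate, 6.25% of the list against 9.87% of all genes. Gpi1 also had more in every LPS replicate than in any apoptotic cell replicate, where it had 0, 0 and 1 (3.12% of the list, against 1.99% of all genes). Its mean difference was 3.33 peaks (exact permutation test, two-sided, p = 0.1, again fixed by the choice of a gene whose groups do not overlap). Fewer peaks were seen at 0 of 32 genes after LPS or apoptotic cells than without stimulation (0.187% and 0.169% of all genes) and after LPS than with apoptotic cells (1.28%). The shares for 1 to 3 of 32 genes were near those of all genes.

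**Figure D2:**
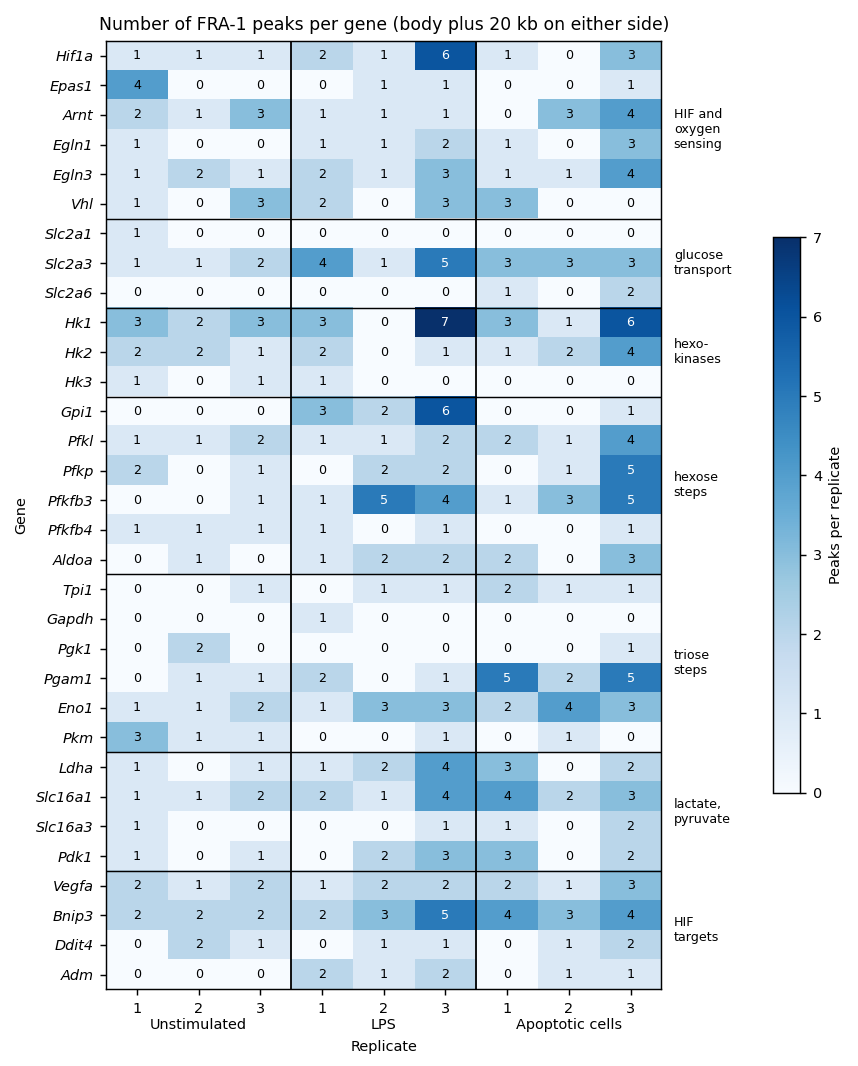
Number of FRA-1 peaks overlapping each of the 32 genes, body plus 20 kb on either side (rows, grouped by role), in each of the 9 replicates (columns); darker blue stands for more peaks, and the number is printed in each cell. Gpi1 and Adm are empty in all unstimulated and filled in all LPS replicates, and the highest number is 7, at Hk1 in LPS 3.

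The counts by role given from here on stand beside a rise over all protein-coding genes. Of those, 48.0, 41.4 and 52.4% had a peak unstimulated, 68.0, 61.1 and 79.1% after LPS, and 62.1, 54.9 and 82.7% with apoptotic cells. Each role holds few genes, so that no trait of a role can be read from its counts. Among the HIF subunits and the genes of oxygen sensing, peaks were listed for 6, 3 and 4 of 6 genes unstimulated, for 5, 5 and 6 after LPS and for 4, 2 and 5 with apoptotic cells. Hif1a, the oxygen-labile subunit, had 1 peak in each unstimulated replicate, 2, 1 and 6 after LPS and 1, 0 and 3 with apoptotic cells. The mean difference of 2.0 peaks after LPS rested mostly on the 6 peaks of LPS 3 (exact permutation test, two-sided, p = 0.4). Epas1, which encodes the other alpha subunit HIF2A, had all 4 of its unstimulated peaks in replicate 1. Arnt had 2, 1 and 3 peaks unstimulated and 1 in each LPS replicate (exact permutation test, two-sided, p = 0.4). Egln1 had 1, 0 and 0, then 1, 1 and 2, then 1, 0 and 3 peaks. Vhl had 1, 0 and 3, then 2, 0 and 3, then 3, 0 and 0 peaks in the order of conditions. At each of the 6 genes the ranges of the 3 conditions overlapped.

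Egln3, the prolyl hydroxylase that HIF itself induces, stood out in this group by position. All 9 replicates had a peak in the same region inside the gene, chr12:54201178-54201355, centred 2608 bp after the start. The scores were 141, 151 and 235 unstimulated, 368, 127 and 383 after LPS, and 345, 218 and 226 with apoptotic cells. LPS 1 and LPS 3 lay above all unstimulated replicates and LPS 2 lay below them. Ranked within replicates, apoptotic cells 1 was the highest, at the 98.5th percentile, against the 96.5th and 92.9th in LPS 1 and 3. The centres of the 9 peaks lay within 34 bp, and 107 bases were in every peak.

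The other regions of this group that recurred in 3 or more replicates were seen mostly in LPS 1 and LPS 3. Beyond the 3′ end of Hif1a, chr12:73959512-73959785 scored 129 in unstimulated 3, 74.1 in LPS 1 and 365 in LPS 3, and the start of Snapc1 was nearer, at 4849 bp. Beyond Arnt, chr3:95511672-95511872 scored 76.6 in unstimulated 3, 92.3 in LPS 1, 223 in LPS 3 and 98.9 in apoptotic cells 3. The start of Ctsk was nearer to this region, at 12562 bp, than that of Arnt, at 77382 bp. Inside Vhl, chr6:113628813-113629127 scored 178 in LPS 1, 183 in LPS 3 and 87.6 in apoptotic cells 1. Each of these was missing in at least 5 of the 9 replicates.

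Of the glucose transporters, only Slc2a3 had peaks throughout. Slc2a3 encodes GLUT3 and had 4, 1 and 5 peaks after LPS beside the numbers given above. Slc2a1, which encodes the widely expressed GLUT1, had a single peak in all 9 replicates, in unstimulated 1, with a score of 99.8 and 16701 bp upstream. Slc2a6 had 1, 0 and 2 peaks with apoptotic cells and 0 in the other conditions. Scaled to the length searched, Slc2a1 had the fewest regions of the 32 genes, 1.46 per 100 kb, and Pgam1 the most, 25.6 per 100 kb. The most frequent region near Slc2a3 was chr6:122721091-122721338, 6471 bp beyond its lower-coordinate end. It scored 197 in unstimulated 3, 386 and 470.1 in LPS 1 and LPS 3, and 212, 175 and 139 with apoptotic cells, with no peak in the other replicates. A further region, chr6:122710718-122710891, lay inside Nanog and scored 196 in unstimulated 3, 222 and 344 in LPS 1 and LPS 3, and 169.8 and 134 in apoptotic cells 1 and 2.

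The hexokinases, which trap glucose in the cell by phosphorylation, had peaks at 3, 2 and 3 of 3 genes unstimulated, at 3, 0 and 2 after LPS and at 2, 2 and 2 with apoptotic cells. Hk1 had 3, 2 and 3, then 3, 0 and 7, then 3, 1 and 6 peaks. Hk2, the hexokinase that HIF induces, had 2, 2 and 1, then 2, 0 and 1, then 1, 2 and 4 peaks, and 0 of its 15 regions had a peak in 3 or more replicates. Hk3 had 1 peak in unstimulated 1, unstimulated 3 and LPS 1 each, and 0 with apoptotic cells. LPS 2 had no peak at any of the 3 genes, so that a change after LPS could not be told from the spread.

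Hk1 held 3 regions of at least 3 replicates, all inside its body of 111066 bp. The region chr10:62351757-62352009, which also overlaps the antisense gene Hk1os, scored 151 and 151 in unstimulated 2 and 3, 179 and 136 in LPS 1 and 3, and 91.2 and 129 in apoptotic cells 1 and 3. The region chr10:62277774-62277949 scored 99.8 in unstimulated 1, 245 and 345 in LPS 1 and 3, and 134 and 147 in apoptotic cells 2 and 3. The region chr10:62337259-62337803, centred 2890 bp after a start, had no unstimulated peak, and scored 137 and 138 in LPS 1 and 3 and 85.9 and 111 in apoptotic cells 1 and 3. All were without a peak in LPS 2.

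In the hexose phosphate steps, from glucose 6-phosphate to the cleavage of fructose bisphosphate, 3, 3 and 4 of 6 genes had a peak unstimulated, 5, 5 and 6 after LPS and 3, 3 and 6 with apoptotic cells. The share of all protein-coding genes with a peak was also higher after LPS, as given above. Pfkfb3, which makes the activator of phosphofructokinase, had 0, 0 and 1 peaks unstimulated, 1, 5 and 4 after LPS and 1, 3 and 5 with apoptotic cells. The mean difference was 3.0 peaks after LPS and 2.67 with apoptotic cells (exact permutation test, two-sided, p = 0.2 for both). Of its 18 regions, 0 had a peak in 3 or more replicates. Pfkfb4, its relative, had 1 peak in each unstimulated replicate and 0 or 1 elsewhere, and Pfkp, the platelet-type phosphofructokinase, had 0 to 2 peaks except 5 in apoptotic cells 3.

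Pfkl, the liver-type phosphofructokinase, had the same region in all 9 replicates, chr10:77973781-77973966. It lay 12981 bp beyond the 3′ end of the gene, and the start of Trpm2 was nearer, at 4001 bp. The scores were 164, 220.2 and 248 unstimulated, 289, 184 and 331 after LPS, and 188, 155 and 201 with apoptotic cells. The groups overlapped. LPS 1 and 3 had the highest scores, whereas apoptotic cells 3 had the highest percentile, 93.7 against 91.3 and 87.3. Aldoa, the aldolase of muscle and most other cells, had 0, 1 and 0, then 1, 2 and 2, then 2, 0 and 3 peaks. It had a region inside the neighbour Tlcd3b, chr7:126816368-126816539, 432 bp from the start of that gene. This region scored 211 in LPS 1, 246 in LPS 3 and 212 in apoptotic cells 1, with no peak elsewhere.

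In the triose steps 2, 4 and 4 of 6 genes had a peak unstimulated, 3, 2 and 4 after LPS and 3, 4 and 4 with apoptotic cells. Eno1, the enolase of most tissues, carried the highest score of the list. Its region chr4:150240814-150241041, inside the gene and 3703 bp after the start, scored 184, 107 and 343 unstimulated, 484, 89.3 and 759.8 after LPS, and 233, 197 and 223 with apoptotic cells. The score in LPS 1 ranked at the 99.2nd percentile of its replicate and that in LPS 2 at the 19.7th. The LPS replicates thus held both the highest and the lowest of the 9 scores.

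Pgam1 had its most frequent region just upstream of the start, chr19:41911248-41911700, ahead of the promoter printed above. Unstimulated 3 scored 151, LPS 1 and 3 scored 200.1 and 240.0, and apoptotic cells 1 and 2 scored 253 and 93.5. The 5 peaks had 115 bases in common and their centres lay within 24 bp, and only the wide peak of LPS 3 ran into the promoter window. The deposited tables assign this region to Pgam1 in all 3 conditions.

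The remaining genes of these steps had few peaks. Gapdh, the glyceraldehyde phosphate dehydrogenase, had 1 peak in all, in LPS 1, with a score of 94.8 and 13959 bp beyond the 3′ end inside Iffo1. Pgk1, the phosphoglycerate kinase on chromosome X, had 2 peaks in unstimulated 2 and 1 in apoptotic cells 3. Tpi1, the triose phosphate isomerase, had 0 to 2 peaks in each replicate. Pkm, the pyruvate kinase of non-liver tissues, had 3, 1 and 1 peaks unstimulated, 0, 0 and 1 after LPS, and 0, 1 and 0 with apoptotic cells. Its mean difference from unstimulated macrophages was -1.33 peaks in both stimulated conditions (exact permutation test, two-sided, p = 0.3 for both), and its 7 regions each had a peak in 1 replicate.

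The genes of lactate and pyruvate had a peak in 4, 1 and 3 of 4 cases unstimulated, in 2, 3 and 4 after LPS and in 4, 1 and 4 with apoptotic cells. Slc16a1 encodes the monocarboxylate transporter MCT1, which moves lactate across the membrane. Its region 926 bp upstream, chr3:104637556-104637738, was missing in unstimulated 1 only. It scored 150.2 and 243 in unstimulated 2 and 3, 384, 166 and 468 after LPS, and 211, 133 and 282 with apoptotic cells. LPS 1 and 3 had the highest scores, and apoptotic cells 3 had the highest percentile, 98.6 against 96.8 and 97.6. A region inside the gene, chr3:104644929-104645107, scored 146 in unstimulated 3, 215 and 538 in LPS 1 and 3, and 169.5 and 94.2 in apoptotic cells 1 and 2.

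Ldha, the lactate dehydrogenase subunit that HIF induces, had a region 17970 bp upstream of its body, chr7:46824046-46824304. The scores were 93.1 and 142 in unstimulated 1 and 3, 364, 118 and 399.8 after LPS, and 121 and 153 in apoptotic cells 1 and 3. Slc16a3, the lactate exporter MCT4, had 1, 0 and 0, then 0, 0 and 1, then 1, 0 and 2 peaks. Pdk1 had 1, 0 and 1, then 0, 2 and 3, then 3, 0 and 2 peaks. No region of Slc16a3 or Pdk1 had a peak in 3 or more replicates.

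Of the secreted and stress-related HIF targets, 2, 3 and 3 of 4 had a peak unstimulated, 3, 4 and 4 after LPS and 2, 4 and 4 with apoptotic cells. Bnip3, a HIF-induced protein that drives the removal of mitochondria, had 2 recurrent regions on either side of the gene. The upstream one, chr7:138918081-138918256, 8575 bp away, was in all 9 replicates. It scored 184, 292 and 368 unstimulated, 337, 208 and 427 after LPS, and 211, 308 and 147 with apoptotic cells, and the 3 groups overlapped. By percentile unstimulated 3 was the highest, at 97.2. The one 2046 bp beyond the 3′ end, chr7:138888421-138888790, scored 91.0 and 186 in unstimulated 1 and 3, 209, 118 and 191 after LPS, and 159, 125 and 206 with apoptotic cells.

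Vegfa, which encodes the vascular endothelial growth factor A, had a region 9516 bp upstream, chr17:46041893-46042067. It scored 107 in unstimulated 3, 386, 89.3 and 470.1 after LPS, and 130, 134 and 147 with apoptotic cells. LPS 1 and 3 lay above all others, whereas LPS 2 was the lowest of the replicates with a peak. Unstimulated 1 and 2 had no peak there. Ddit4, an inhibitor of the mTOR pathway that responds to hypoxia, had 0, 2 and 1, then 0, 1 and 1, then 0, 1 and 2 peaks, and Adm is described above.

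**Figure D3:**
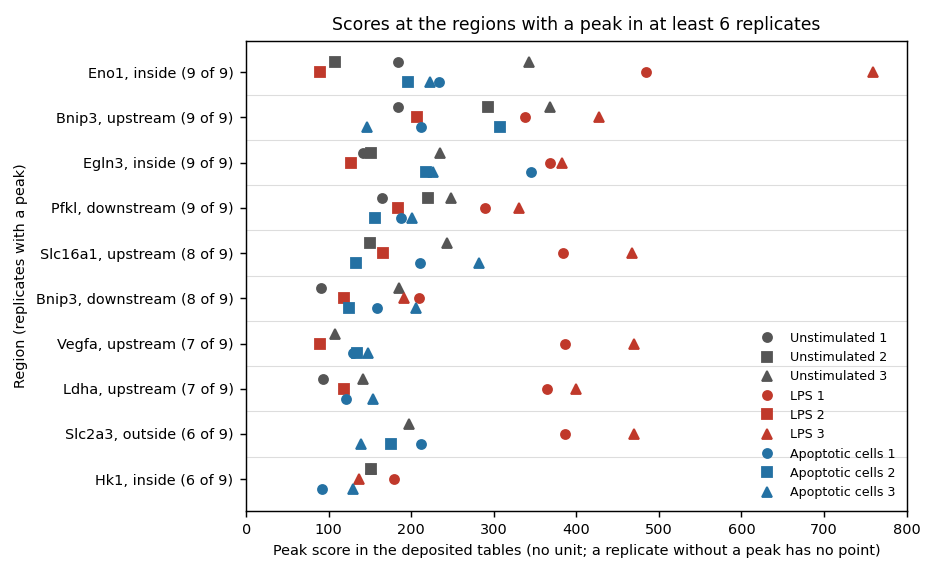
Peak scores (horizontal axis, no unit) at the 10 regions near the listed genes that recurred in 6 or more of 9 replicates (rows); colours give the condition and shapes the replicate, and a replicate without a peak has no point. The raw score is highest in LPS 1 or LPS 3 (red circle and triangle) at each region, up to 759.8 at Eno1, and within-replicate percentiles, which are not plotted, are highest in one of these at 5 of the 10.

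Taking all 280 regions, most were seen once. A single replicate held 248 of them, while 32 recurred in 2 or more (11.4%, compared with 10.3% of all regions) and 20 in 3 or more (7.14%, compared with 4.81%). At least 6 replicates shared 10 regions (3.57%, against 1.67%), and all 9 replicates shared 4 regions (1.43%, against 0.456%), those of Egln3, Pfkl, Eno1 and Bnip3. A region of all 9 replicates thus lay near 4 of 32 genes (12.5%), against 4.92% of protein-coding genes. That comparison is not matched for gene length, whose median was 21298 bp in the list and 17169 bp over all protein-coding genes. Of the 4 regions, that of Pfkl lay nearer to the start of Trpm2. By position, 112 of the 280 regions were inside the gene, 92 upstream and 70 downstream, and for 6 the table gives no strand of the gene. The nearest start of a protein-coding gene was that of a listed gene for 199 of the 280 and for 13 of the 20. Epas1 and Slc2a3 had no promoter entry, so their own starts could not be found nearest to their 7 and 13 regions, among them 2 of the 20.

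The 20 regions of 3 or more replicates lay at 15 genes. The counts that follow were not set beside those of all 14449 regions of 3 or more replicates. LPS 1 and LPS 3 had 21233 regions in common over the genome, so no trait of the list can be read from these counts. LPS 1 and LPS 3 had a peak in all 20, LPS 2 in 8 and unstimulated 1, 2 and 3 in 7, 6 and 15. Apoptotic cells 1, 2 and 3 had a peak in 16, 13 and 13. The highest score was that of LPS 3 at 16 regions, but LPS 3 had the highest percentile at 8, LPS 1 at 4, apoptotic cells 3 at 4, apoptotic cells 1 at 3 and unstimulated 3 at 1. No unstimulated replicate had a peak at 4 of the 20 regions. At the other 16, LPS 1 and 3 both lay above every unstimulated score at 13, and above every unstimulated percentile at 11. At 12 regions LPS 2 had no peak while LPS 1 and 3 did, so that the LPS replicates also differed among themselves. Of the replicates that hold most of these regions, unstimulated 3, LPS 1 and LPS 3 belong to the narrow width class, while apoptotic cells 1, with 16 of them, belongs to the wide class.

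**Figure D4:**
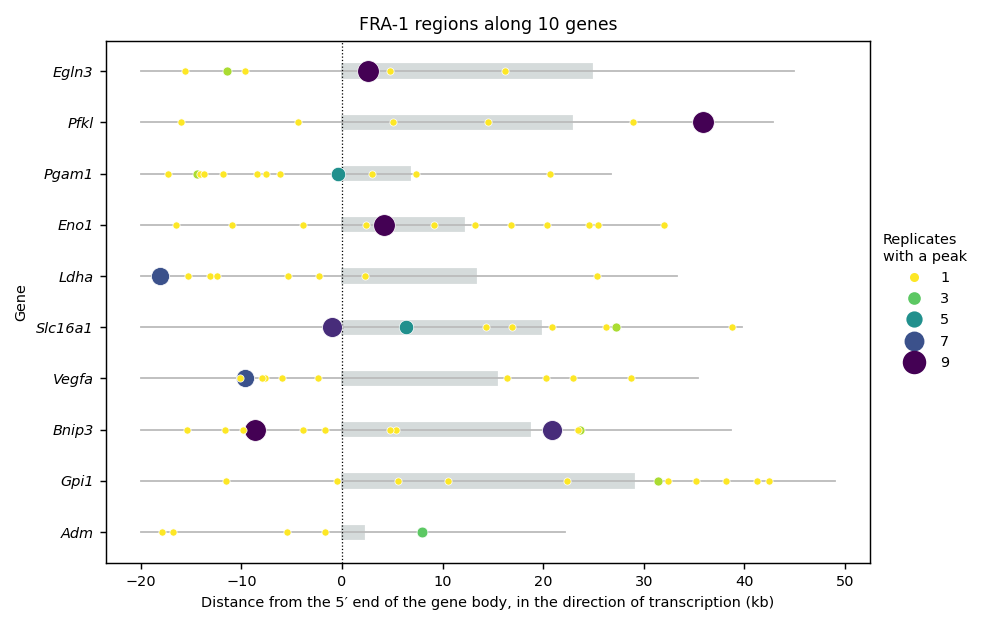
Positions of the FRA-1 regions along 10 of the genes (rows), as the distance of the region's centre from the 5′ end of the gene body in kb, with the body as a grey bar; size and colour of the dots give the number of replicates with a peak, from 1 (small, yellow) to 9 (large, dark). The dots of 9 replicates lie inside Egln3 and Eno1, upstream of Bnip3 and beyond the 3′ end of Pfkl, while Gpi1 has no dot above 2 replicates.

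Other genes of the same pathways, 53 in all, served as a further list. They comprise isoenzymes, further HIF targets, and genes of gluconeogenesis, pyruvate oxidation and the pentose phosphate pathway. A peak was listed for 26, 22 and 27 of them unstimulated (49.1, 41.5 and 50.9%), near the 48.0, 41.4 and 52.4% of all protein-coding genes. After LPS the numbers were 36, 31 and 46 (67.9, 58.5 and 86.8%), against 68.0, 61.1 and 79.1% of all protein-coding genes. With apoptotic cells they were 35, 26 and 44 (66.0, 49.1 and 83.0%), against 62.1, 54.9 and 82.7%. A peak in all 3 unstimulated replicates was seen at 7 of the 53 (13.2%), below the 40.6% of the 32 genes and the 18.9% of all protein-coding genes. Car12, Bnip3l and Ndrg1, a carbonic anhydrase, a relative of Bnip3 and a hypoxia-induced stress gene, had a peak in each LPS replicate and none without stimulation (3 of 53, against the 3.88% given above), and the reverse was seen at 0.

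The most recurrent regions of that list had no common position. The glucose transporter gene Slc2a8 had a region of all 9 replicates inside Garnl3, chr2:33000861-33001136, with scores of 157 to 408. Pdk3, a relative of Pdk1, had one 813 bp upstream, chrX:93832963-93833299, with scores of 141 to 368 in all 9 replicates. The transketolase gene Tkt at chr14:30537510-30537688, the hydroxylase gene Egln2 at chr7:27151074-27151310 and the HIF subunit gene Hif3a at chr7:17018618-17018982 had regions of 8 replicates each, the last inside Ppp5c. A region of all 9 replicates lay near 2 of the 53 genes, against 4.92% of protein-coding genes.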

How the data were processed

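The 32 genes and the list of 53 other pathway genes were chosen with earlier results of these data known. The authors deposited 1 headerless table per condition, in which each genomic segment has a peak score for each of the 3 replicates (-1 for no peak), and in every row the column of replicate numbers equalled the number of scores given. BWA 0.7.14, bedtools and the builds mm10 and GRCm38 are named in the submitters' processing notes; the peak caller is not given in the sources used here, and the paper's re-analysis with Trimmomatic, Bowtie2 and MACS2 is not stated to be behind the tables. The table columns name no mouse. Pooled input samples (3) were not used. Adjoining segments of equal score were joined into peaks per replicate, and peaks were assigned to RefSeq GRCm38.p6 gene bodies extended by 20 kb with Python 3.11.15, numpy 2.4.6, pandas 2.3.3 and matplotlib 3.10.9. Genes with scores in every replicate are those with a region of at least 3 replicates, and of the other pathway genes the 5 with the most recurrent regions; Gpi1, the genes with few peaks and the promoters printed were singled out after their values were seen. Simulated tables served to test the joining and counting, and 2410 of 2410 peaks and 1200 of 1200 counts came back. Single genes were compared by exact permutation over replicates, without adjustment since no p could go below 0.1, and p-values measure only the spread between replicates. No test was made of the list as a whole. Alternatives changed the extension, the score minimum, the number of peaks (the 20981 highest-scoring per replicate, ties broken at random with a fixed seed), the gene assignment, the comparison genes, the merging and the replicates. Region sequences were not analysed here because no genome sequence was used.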

Additional observations from a re-analysis of the deposited data

How the results depend on the processing

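The width classes and all alternatives of the surplus over genes of similar length were chosen after seeing the data. No paired analysis was possible because the tables do not say which column is which mouse. The depth is unknown, so a missing peak may be one that was too weak to be listed. Leaving out each replicate in turn gave 19.5 to 22 genes with a peak unstimulated, 21.0 to 24.5 after LPS and 18.5 to 23.5 with apoptotic cells, and a surplus of 16.1 to 20.5, 2.07 to 3.58 and 0.376 to 1.13 percentage points. It gave 2 to 3 genes with a peak in each LPS replicate and none unstimulated, while 4.96 to 8.9% of all genes showed it. The third was Egln1, Aldoa or Pfkfb3 without unstimulated replicate 1, 2 or 3. The reverse gave 0 to 1 (Pkm without LPS 3, with 0.498% of all genes). Apoptotic cells against unstimulated gave 0 to 2 (Pfkfb3 and Tpi1 without unstimulated 3), while 3.74 to 7.13% of all genes showed it. Its reverse gave 0 to 1, namely Hk3 without unstimulated 2 (0.535% of all genes), Pkm without apoptotic cells 2 (0.238%) and Pfkfb4 without apoptotic cells 3 (0.868%). LPS against apoptotic cells gave 0 to 1 (Gpi1 without apoptotic cells 3, 4.24%), as did the reverse (Slc2a6 without apoptotic cells 2, 1.96%).

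In the order unstimulated, LPS and apoptotic cells, the mean number of genes with a peak was 9.67, 11.0 and 11.3 with the gene body alone and 1.67, 4.67 and 5.67 with the deposited gene column alone. It was 12.7 and 15.0 in the first 2 conditions with 5 kb, 17.3 unstimulated with scores of at least 100, 17.0 and 13.7 in the last 2 with equal numbers of peaks, and 27.0 in the narrow apoptotic cell replicate. The surplus in points was 11.2, -1.23 and 7.28 with 5 kb and 9.19, -1.08 and 1.82 with the gene body alone. With the deposited column it was -0.088 unstimulated and 7.78 with apoptotic cells. With apoptotic cells it was also 3.52 with scores of at least 100 and -0.509 with genes within 25% of the length. With equal numbers of peaks it was 9.3 after LPS and -0.573 with apoptotic cells. The cause of these shifts was not tested. Genes with a peak in each LPS replicate and none unstimulated numbered 1 with 5 kb or scores of at least 100 (Gpi1; 2.88% and 3.54% of all genes), 2 with equal numbers (Gpi1 and Pfkfb3; 1.15%) and 0 with the gene body or the deposited column alone (2.02% and 0.402%). The reverse numbered 1 with 5 kb or the gene body alone (Arnt; 0.11% and 0.0868%) and 1 with equal numbers of peaks (Pkm; 0.612%). A peak in every unstimulated and no apoptotic cell replicate was seen at 1 gene with the gene body alone (Pfkfb4; 0.0914%), with scores of at least 100 and with equal numbers (Pkm; 0.21% and 0.599%). A peak in every LPS and no apoptotic cell replicate was seen at 1 gene (Gpi1) with 5 kb, scores of at least 100 and equal numbers (0.937%, 1.56% and 1.05%). Over all settings, 89 values stayed and 47 moved. Merging only peaks that overlapped by at least 50 bp gave 30 regions of at least 2, against 32, and 10 of at least 6 replicates.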
